A study of Homo sapiens with 12 samples.

Results

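The genes described here encode the machinery of oxidative phosphorylation, the respiratory complexes I to IV and the ATP synthase (complex V), together with a few genes that share their names. They were chosen by gene symbol: NDUFA, NDUFB, NDUFC, NDUFS and NDUFV followed by a number, SDHA to SDHD, UQCR, CYC1, COX4 to COX8, ATP5, and the MT-ND, MT-CO, MT-CYB and MT-ATP genes. Pseudogenes, whose symbols end in P and a number, were left out (12 in the MEC1 table and 2 in the JVM2 table), while MT-ATP6 and MT-ATP8, whose symbols have the same form, were kept. The rule found 103 of the 22441 genes in the MEC1 table and 96 of the 17144 genes in the JVM2 table, and all 96 were also in the MEC1 table. Of the 103 genes, 13 lie on mitochondrial DNA and 90 on nuclear chromosomes. The 90 nuclear genes comprised 79 subunits and 11 genes that are no subunit, such as ATP5S, ATP5SL, COX7A2L, antisense RNAs and read-through transcripts. A filter on low counts left 96 of them to test in MEC1 (83 nuclear and 13 mitochondrial) and 93 in JVM2 (80 and 13). The 7 genes left untested in MEC1 were ATP5L2, UQCRHL, ATP5J2-PTCD1, COX8C, COX4I2, COX6B2 and a second, read-through entry of NDUFA7. The 3 left untested in JVM2 were NDUFB2-AS1, NDUFV2-AS1 and ATP5J2-PTCD1.

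Complexes I and II pass electrons from NADH and succinate to coenzyme Q, complex III passes them on to cytochrome c, and complex IV reduces oxygen. Complexes I, III and IV pump protons across the inner mitochondrial membrane, and complex V makes ATP as the protons flow back. Every complex but complex II is a mosaic of subunits from both genomes: the mitochondrial genes are transcribed as long precursors and cut apart at their tRNAs, while the nuclear subunits are transcribed singly, translated in the cytosol and imported.

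The study overexpressed UGT2B17, an enzyme that conjugates steroids and other lipids to glucuronic acid, in a pair of human malignant B-cell lines and sequenced total RNA depleted of ribosomal RNA. MEC1 is a line from chronic lymphocytic leukemia and JVM2 a line from a related mature B-cell leukemia. There were 4 groups of 3 biological replicates each. Per the paper, McGill University and the CHU de Québec both sequenced libraries. The labels do not say which libraries went where, so that a part of the site cannot be told apart. MEC1-2B17 and JVM2-2B17 cells carried a pcDNA6 plasmid with the UGT2B17 coding sequence and were selected with blasticidin. JVM2-CTRL cells carried the empty pcDNA6 plasmid under the same antibiotic. MEC1-CTRL cells carried instead an shRNA against UGT2B17 and were selected with puromycin, so that the MEC1 arms differed in construct and antibiotic as well as in UGT2B17, and these cannot be told apart. All groups were stably selected cultures, and neither line had an untransfected arm.

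UGT2B17 itself measured 11.8, 10.8 and 10.4 CPM (a gene's read counts relative to the scaled library total) in MEC1-CTRL and 22.7, 20.6 and 20.1 in MEC1-2B17, and 29.8, 26.2 and 27.4 in JVM2-CTRL and 35.3, 45.3 and 35.6 in JVM2-2B17. It was higher with the plasmid in both lines, by 0.94 ± 0.069 (log2 fold change ± SE; adjusted p = 2.02e-09) for MEC1, while JVM2 gave 0.48 ± 0.11 (adjusted p = 0.00481), with edgeR's quasi-likelihood test and Benjamini-Hochberg adjustment over all genes tested, which gave every adjusted p here. Library totals were 31762649 to 37744991 counts in MEC1 and 8809179 to 11231330 in JVM2. JVM2-2B17 replicate 2 stood furthest from the other libraries of its own arm, with a root mean square log2 difference of 0.34. The other JVM2 libraries gave 0.25 to 0.30, each within its own arm. Of 8 B-cell markers, 7 were in the tables, with summed levels of 2445 to 2506 CPM in MEC1-CTRL, 2294 to 2369 in MEC1-2B17, 1363 to 1380 in JVM2-CTRL and 1355 to 1597 in JVM2-2B17, whereas T-cell markers summed to at most 0.523 CPM in MEC1 and none of the 5 was in the JVM2 table. All 7 B-cell markers were called in MEC1 (3 higher and 4 lower) and 5 in JVM2 (4 higher and 1 lower). Over all genes tested, 20.0% were higher and 21.6% lower in MEC1, and 14.1% higher and 15.3% lower in JVM2. Plasma-cell markers summed to 924 to 947 CPM in JVM2-CTRL and 667 to 699 CPM in JVM2-2B17, with 3 of 4 lower. In the MEC1 arms they summed to 474 to 489 and 487.5 to 525 CPM, with 2 of 4 lower and 1 higher. Fibroblast markers summed to 16.3 to 19.5 CPM in JVM2-CTRL and 23.5 to 29.2 CPM in JVM2-2B17, where 1 was tested and was higher. In MEC1 they summed to 1.89 to 2.44 and 2.52 to 3.56 CPM, with 1 of 2 higher. NK-cell markers, mostly GNLY, went from 23.4 to 25.9 CPM in MEC1-CTRL to 8.17 to 9.10 CPM in MEC1-2B17, with the defining marker NCAM1 not in the table. The part of these marker differences in the results below was not tested. CPM values are shares of the RNA of a culture, in which fewer cells and less RNA per cell cannot be told apart.

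The mitochondrial genes sit so close together that some share bases, which bears on how their reads were counted. The last part of MT-ATP8, a small membrane subunit of ATP synthase of 207 bases, is also the start of MT-ATP6, the proton channel subunit. The shared stretch is the 46 bases at chrM:8527-8572 of hg38, on the + strand, shown here with the MT-ATP6 start codon in capitals:
MT-ATP8 and MT-ATP6 overlap: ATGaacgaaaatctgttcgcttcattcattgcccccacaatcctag
MT-ND4L and MT-ND4, a neighbouring pair of complex I core subunits, share 7 bases at chrM:10760-10766. In all, 5 genes also have near-identical nuclear copies on chromosome 1 (at least 98% identity over at least 100 bases), which cover 36.8% of MT-ND1, 70.0% of MT-CO3 and 100% of MT-ND2, MT-CO1 and MT-ATP6. No such copy was found for the other 8. The split of reads between overlapping genes and between a gene and its copy is therefore uncertain, and the strandedness of the libraries is not given in the sources used here, so reads of antisense pairs could not be told apart.

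In JVM2 cells, the mitochondrially encoded genes fell with UGT2B17. The 13 genes took 0.526%, 0.488% and 0.465% of all counts in JVM2-CTRL replicates 1 to 3 and 0.292%, 0.133% and 0.302% in JVM2-2B17. Every JVM2-2B17 library lay below every control, and replicate 2 was the lowest. The Wilson 95% intervals of the library values, which cover counting error only, spanned 0.130% to 0.135% in JVM2-2B17 replicate 2 and 0.460% to 0.469% in the lowest control. The arm means were 0.493% ± 0.0312 and 0.242% ± 0.0949 (SD, n = 3 each), a log2 ratio of -1.03 (two-sided exact permutation test, p = 0.1, which is as small as 3 against 3 allows). Without JVM2-2B17 replicate 2 the log2 ratio was -0.73.

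**Figure D1:**
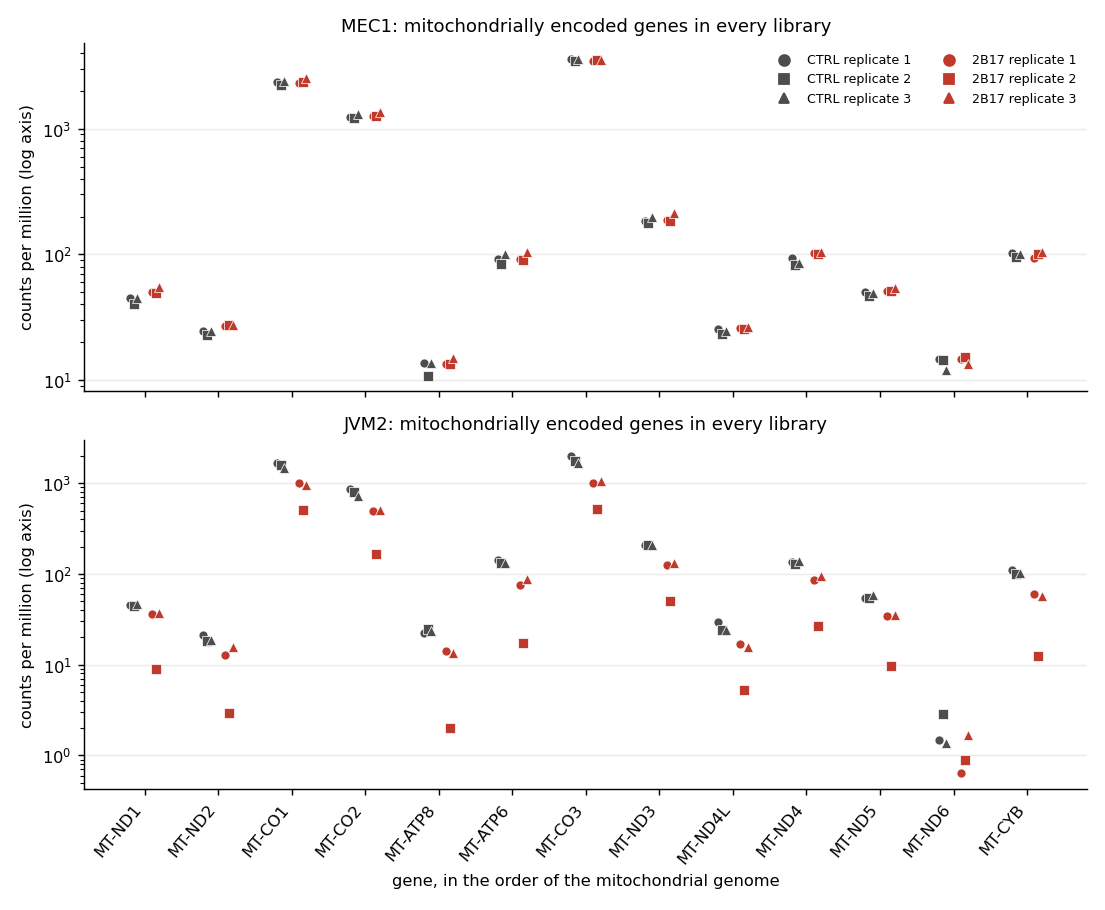
Level of each of the 13 mitochondrially encoded genes in each library (CPM, log axis), by line and arm. In JVM2 all genes but MT-ND6 had the 2B17 libraries below the controls, with replicate 2 lowest, whereas in MEC1 the arms lay close together.

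Gene by gene, 10 of the 13 mitochondrial genes were lower in JVM2-2B17 and 0 were higher, and their log2 fold changes had a median of -1.01. Over all 13021 genes tested in JVM2, 15.3% were lower and 14.1% higher, with a median of 0.0001. The arms did not overlap for 12 of the 13 genes, MT-ND6 being the exception. These genes were read in the same libraries and are not separate observations. The share of all genes with arms apart is not given here. Levels in JVM2-2B17 replicate 2 were 8.60% to 46.9% of the control mean (median 19.7%), against medians of 61.1% and 63.5% in replicates 1 and 3. Replicate 2 thus carried the lowest levels, while the other 2B17 replicates were also below the controls for the 12 genes. With replicate 2 left out, 12 genes were lower, from -0.32 for MT-ND1 to -0.84 for MT-CYB, and MT-ND6 was not called. With a control left out, 5 genes (without JVM2-CTRL replicate 1) or 6 genes (without replicate 2 or 3) were lower. MT-CO1, MT-CO3, MT-CYB and MT-ND3 were called whichever library was left out. DESeq2, which weighs dispersion differently, called 2 of the 13, MT-CO1 and MT-CO3, with adjusted p of 0.0778 to 0.466 for the others.

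The most abundant mitochondrial mRNAs were those of complex IV, whose 3 catalytic core subunits are all encoded there. MT-CO3 measured 1983, 1745 and 1654 CPM in JVM2-CTRL and 1000, 514.5 and 1071 CPM in JVM2-2B17, a log2 fold change of -1.06 ± 0.20 (adjusted p = 0.00152). MT-CO1, which holds the site where oxygen is reduced, measured 1671, 1601 and 1484 CPM against 1011, 501 and 954 CPM (-0.95 ± 0.19, adjusted p = 0.00227). MT-CO2, which accepts electrons from cytochrome c, measured 867, 791 and 731 CPM against 501, 165 and 503 CPM (-1.03 ± 0.29, adjusted p = 0.0182). For all 3 genes, the arms were apart and replicate 2 of JVM2-2B17 was far below the other 2B17 replicates.

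MT-CYB, the cytochrome b of complex III and its only mitochondrially encoded subunit, measured 112, 100.5 and 104 CPM in JVM2-CTRL and 60.5, 12.6 and 56.9 CPM in JVM2-2B17 (-1.27 ± 0.33, adjusted p = 0.0126). For the ATP synthase, MT-ATP6 measured 143, 133 and 133 CPM against 76.4, 17.3 and 87.6 CPM (-1.16 ± 0.35, adjusted p = 0.0237). MT-ATP8 measured 22.6, 24.4 and 23.7 CPM against 14.3, 2.03 and 13.4 CPM (-1.22 ± 0.35, adjusted p = 0.0188). In these genes the 2B17 replicates 1 and 3 stayed close to each other and replicate 2 was several times lower.

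Of the 7 mitochondrial complex I subunits, which form its membrane-bound proton pump, 4 fell in JVM2-2B17. MT-ND3 measured 206, 211 and 211 CPM in JVM2-CTRL and 127, 50.3 and 133 CPM in JVM2-2B17 (-1.01, adjusted p = 0.00754). MT-ND4 measured 135, 128 and 139 CPM against 85.1, 26.5 and 94.8 CPM (-0.96, adjusted p = 0.0267). MT-ND5 measured 54.5, 54.5 and 58.3 CPM against 34.1, 9.57 and 35.4 CPM (-1.07, adjusted p = 0.0139). The arms of these genes did not overlap. MT-ND4L measured 29.5, 24.1 and 23.9 CPM against 17.04, 5.29 and 15.7 CPM (-1.002, adjusted p = 0.0123). The other 3 did not pass the test. MT-ND1 measured 45.6, 44.5 and 47.2 CPM against 36.0, 8.90 and 37.1 CPM (-0.73, adjusted p = 0.097), and MT-ND2 21.1, 18.1 and 18.8 CPM against 12.8, 2.93 and 15.5 CPM (-0.88, adjusted p = 0.0581). MT-ND6, the only one encoded on the opposite strand, measured 1.495, 2.89 and 1.38 CPM against 0.635, 0.901 and 1.70 CPM (-0.89, adjusted p = 0.122), with arms that overlapped.

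Other RNAs of mitochondrial origin did not all move with the mRNAs in JVM2. The mitochondrial ribosomal RNAs took 0.196%, 0.0724% and 0.193% of counts in JVM2-CTRL and 0.0604%, 0.0308% and 0.0796% in JVM2-2B17, so that control replicate 2 fell among the 2B17 libraries. MT-RNR1 (-2.08, adjusted p = 0.0073) and MT-RNR2 (-1.28, adjusted p = 0.00981), the small and large ribosomal RNAs, were both lower. The libraries were depleted of ribosomal RNA, and the part of the depletion in these values was not tested. RNA28S5, a cytosolic ribosomal RNA, took 0.0277%, 0.317% and 0.1495% of counts in JVM2-CTRL and 0.125%, 0.0284% and 0.157% in JVM2-2B17. The mitochondrial tRNA genes together, relative to unscaled totals, measured 4.29 ± 0.493 CPM in JVM2-CTRL and 7.07 ± 1.52 CPM in JVM2-2B17 (SD, n = 3 each), with every 2B17 library above every control (exact permutation test, p = 0.1). These sums rested on few counts, 47, 48 and 35 in JVM2-CTRL and 92, 47 and 68 in JVM2-2B17. Of the 4 mitochondrial tRNA and rRNA genes with enough counts to test in JVM2, 0 were called higher. MTATP6P1, a nuclear copy of mitochondrial DNA on chromosome 1, was lower (-1.43, adjusted p = 0.00968), with 22.8, 18.3 and 19.6 CPM against 9.79, 1.24 and 11.1 CPM. RN7SK, an abundant nuclear RNA left in libraries after ribosomal RNA depletion, took 2.83% ± 0.208 of counts in JVM2-CTRL and 3.54% ± 0.260 in JVM2-2B17, arms apart. With the abundant noncoding RNAs taken out of the totals, the log2 ratio of the mitochondrial share was -1.01, and their part in the result was not otherwise tested.

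In MEC1 cells the mitochondrial share did not separate the arms. It was 0.789%, 0.756% and 0.792% in MEC1-CTRL and 0.760%, 0.776% and 0.814% in MEC1-2B17, with means of 0.779% ± 0.0201 and 0.783% ± 0.0275 (SD, n = 3 each; log2 ratio 0.0072, exact permutation test, p = 0.9). Of the 13 genes, 3 were higher in MEC1-2B17 and 0 were lower, with a median of 0.068, whereas 20.0% of the 16581 genes tested in MEC1 were higher and 21.6% lower, with a median of 0.0026. The 3 genes were complex I core subunits. MT-ND1 measured 45.3, 40.6 and 45.2 CPM in MEC1-CTRL and 50.3, 49.8 and 54.6 CPM in MEC1-2B17 (0.24 ± 0.052, adjusted p = 0.00105). MT-ND2 measured 24.7, 22.9 and 24.4 CPM against 27.0, 27.4 and 27.3 CPM (0.18 ± 0.052, adjusted p = 0.00836). MT-ND4 measured 93.2, 82.7 and 85.1 CPM against 103, 101 and 105 CPM (0.24 ± 0.041, adjusted p = 9.12e-05). Their arms did not overlap. The other 10, which included every mitochondrial subunit of complexes III, IV and V, were not called.

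Levels of different genes were compared per length, as CPM per kilobase. The tables of the lines were scaled separately, so that levels were not tested across lines. In both control arms MT-CO3 was highest (4547 in MEC1-CTRL and 2288 in JVM2-CTRL), followed by MT-CO2 (1834 and 1164), MT-CO1 (1503 and 1028), MT-ND3 (539 and 605) and MT-ATP6 (136 and 199.9). MT-ND2 was at 23.0 in MEC1-CTRL and 18.6 in JVM2-CTRL. The lines parted at MT-ND6, which was at 26.3 CPM per kilobase in MEC1-CTRL and 3.66 in JVM2-CTRL, the lowest of the 13 genes there. Whether this came from the cells or from how the libraries were made was not tested. Among nuclear subunits ATP5B, the catalytic subunit of the ATP synthase head, was highest in both control arms, at 603 and 705.5 CPM per kilobase.

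The nuclear-encoded genes moved differently in each line. Together they took 1.08% ± 0.00713 of counts in MEC1-CTRL and 1.00% ± 0.0122 in MEC1-2B17 (SD, n = 3 each), arms apart, and 0.960% ± 0.0141 in JVM2-CTRL and 1.00% ± 0.0394 in JVM2-2B17, where the arms overlapped (exact permutation tests, p = 0.1 and p = 0.2). For every 100 counts on nuclear members there were 72.4 ± 1.51 on mitochondrial members in MEC1-CTRL and 78.1 ± 3.44 in MEC1-2B17, and 51.4 ± 2.49 in JVM2-CTRL and 24.4 ± 10.2 in JVM2-2B17. The arms were apart in both lines, with 2B17 above CTRL in MEC1 and below it in JVM2 (exact permutation test, p = 0.1 in each).

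**Figure D2:**
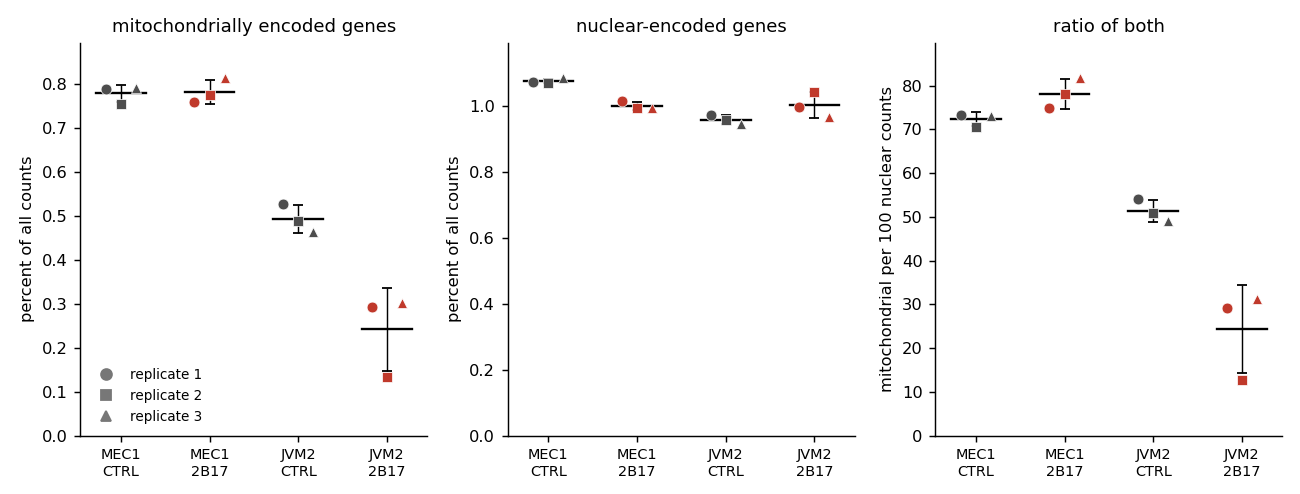
Percent of all counts on mitochondrially encoded and nuclear-encoded members in each library, with arm means. The mitochondrial share in JVM2 ranged from 0.465% to 0.526% in the controls and from 0.133% to 0.302% with UGT2B17, while the nuclear share stayed between 0.946% and 1.09% in all 12 libraries.

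In MEC1, 38 of the 83 nuclear members tested were lower in 2B17 and 3 were higher (median -0.10), beside 21.6% lower and 20.0% higher among all genes tested. All 38 were subunits, and for each of them every 2B17 library lay below every control. The calls came from these same libraries, so that this separation is no further support for them. The 38 were spread over complexes I (15 of 36 subunits), II (1 of 4), III (6 of 9), IV (8 of 12 tested) and V (8 of 15). The summed level of each complex's nuclear subunits was also below the controls in every 2B17 library, from 2580 to 2434 CPM on average for complex I, 1463 to 1343 for complex III, 2019 to 1839 for complex IV and 4095 to 3852 for complex V. The falls were small, the median of the 76 subunits being -0.11.

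**Figure D3:**
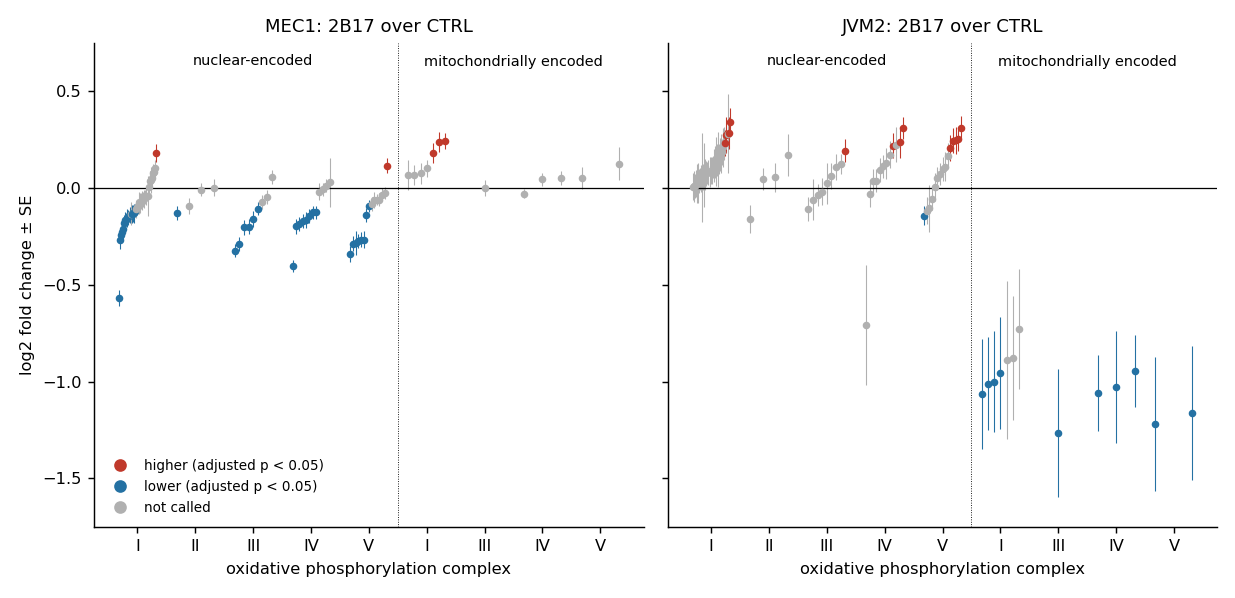
Log2 fold change, 2B17 over CTRL, of each nuclear and mitochondrial subunit tested, by complex in MEC1 and JVM2, with called genes marked. Members that are no subunit, such as COX7A2L, are not drawn. Called nuclear subunits lay mostly below 0 in MEC1 (38 of 40) and above 0 in JVM2 (13 of 14), and the called mitochondrial genes in JVM2 lay near -1.

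Within complex I of MEC1, 0 of the 7 nuclear core subunits, which carry the flavin and the iron-sulfur clusters, was called, and 15 of the 29 accessory subunits were lower. The largest fall was that of NDUFA8, an accessory subunit on the intermembrane side, with 64.5, 62.8 and 63.6 CPM in MEC1-CTRL and 43.95, 40.9 and 43.9 CPM in MEC1-2B17 (-0.57 ± 0.043, adjusted p = 3.72e-09). NDUFA8 lies on chromosome 9 beyond 60 Mb, where 337 of 471 genes tested were lower in MEC1-2B17 and 14 higher, with a median of -0.39. In JVM2 38 of 360 genes there were lower and 43 higher. NDUFB8 was the complex I gene that rose, from 36.1, 36.4 and 37.9 CPM to 42.1, 40.4 and 42.5 CPM (0.18 ± 0.046, adjusted p = 0.00419).

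Complex II, succinate dehydrogenase, also belongs to the citric acid cycle and has no mitochondrially encoded subunit. SDHA, its flavoprotein, measured 155, 147 and 148 CPM in MEC1-CTRL and 143, 133 and 136 CPM in MEC1-2B17 (-0.13, adjusted p = 0.00711), a small fall with arms apart. The iron-sulfur subunit SDHB (-0.0095) and the membrane anchors SDHC (-0.092, adjusted p = 0.0868) and SDHD (0.0020) did not pass the test. In JVM2 none of the 4 was called, at 0.05 for SDHA, -0.16 for SDHB, 0.05 for SDHC and 0.17 for SDHD.

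In complex III of MEC1 the small subunits UQCRQ and UQCR10 were among the 5 largest nuclear falls. UQCRQ measured 125, 123 and 129.9 CPM in MEC1-CTRL and 104, 99.1 and 99.0 CPM in MEC1-2B17 (-0.32 ± 0.034, adjusted p = 3.10e-07). UQCR10 measured 93.1, 90.8 and 93.3 CPM against 78.8, 74.4 and 73.6 CPM (-0.29 ± 0.037, adjusted p = 3.70e-06). In both, every 2B17 library was below every control.

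In complex IV of MEC1, COX7B, a small nuclear subunit with a role in assembly, measured 152, 147 and 156 CPM in MEC1-CTRL and 115, 113 and 116 CPM in MEC1-2B17 (-0.40 ± 0.033, adjusted p = 1.05e-08). The ubiquitous forms of subunits that have a tissue-restricted partner also fell, namely COX6A1 (-0.20), COX6B1 (-0.19), COX7A2 (-0.13), COX8A (-0.17) and NDUFA4 (-0.13), while COX4I1, the largest nuclear subunit, measured 263, 256 and 259 CPM against 260.3, 257 and 257 CPM (-0.0065, adjusted p = 0.901). COX7A2L, which joins complexes III and IV in a supercomplex and is no subunit by itself, rose from 155, 156 and 146 CPM to 181, 189.6 and 178 CPM (0.26 ± 0.038, adjusted p = 1.69e-05).

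In complex V of MEC1, 6 of the 10 subunits outside the F1 head were lower, and 2 of 5 in the head were lower with 1 higher. ATP5G3, one of the genes for the c subunit, measured 236, 239 and 255 CPM in MEC1-CTRL and 201, 186 and 188 CPM in MEC1-2B17 (-0.34 ± 0.041, adjusted p = 1.53e-06). ATP5E, the epsilon subunit of the central stalk, measured 253, 259.9 and 245.5 CPM against 284, 278 and 259.5 CPM (0.11 ± 0.039, adjusted p = 0.0255), a rise with arms that overlapped. ATP5B was not called (-0.06, adjusted p = 0.0878).

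In JVM2, 14 of the 80 nuclear members tested were higher in 2B17 and 1 was lower (median 0.085), beside 14.1% higher and 15.3% lower among all genes. The share of members higher was thus near that of all genes, and the share lower was below it. Of the 14, 4 belonged to complex I (NDUFA2, NDUFA11, NDUFB5 and NDUFA10), 1 to complex III (UQCRB), 3 to complex IV (COX4I1, COX7C and COX6A1) and 5 to complex V (ATP5J2, ATP5O, ATP5E, ATP5L and ATP5G2), and COX7A2L was the other. All 36 nuclear complex I subunits had positive values, of which 4 passed the test, and 0 of the 7 core subunits was called. JVM2 libraries were shallower, and their biological coefficient of variation was 6.92% against 4.22% in MEC1.

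COX7A2L had the largest rise in JVM2, from 87.5, 98.6 and 89.8 CPM in JVM2-CTRL to 120.5, 135 and 110.4 CPM in JVM2-2B17 (0.41 ± 0.078, adjusted p = 0.00196). NDUFA2, an accessory subunit of the matrix arm of complex I, measured 50.9, 49.4 and 45.0 CPM against 60.6, 64.4 and 59.3 CPM (0.34 ± 0.072, adjusted p = 0.00346). NDUFA11, an accessory subunit of the membrane arm, measured 29.0, 29.9 and 28.6 CPM against 32.6, 38.3 and 36.0 CPM (0.28 ± 0.084, adjusted p = 0.0223). In these 3 genes the arms did not overlap. COX4I1 measured 252, 244 and 241 CPM against 307, 319 and 286 CPM (0.31 ± 0.058, adjusted p = 0.00166), again with arms apart. The gene that fell was ATP5B, with 1267, 1241 and 1216 CPM against 1158, 1118 and 1093 CPM (-0.14 ± 0.050, adjusted p = 0.0458).

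Over the 76 nuclear subunits in JVM2, the median log2 ratio of 2B17 replicate 2 to the other libraries of its arm was 0.066. That of 2B17 replicate 3 was -0.076. The subunit that stood furthest out in replicate 2 was NDUFV2, at 1.04. NDUFV2, a core subunit of complex I, measured 28.5, 22.01 and 22.5 CPM in JVM2-CTRL and 18.6, 38.7 and 19.1 CPM in JVM2-2B17, the high value being replicate 2. It was not called over all 6 libraries and was lower without that replicate (-0.37, adjusted p = 0.0109). The gene was picked for its value in replicate 2, so that the call without it is a description only. Without replicate 2, 17 nuclear members were higher, 13 of them shared with the 14 above, and 2 were lower. The count of higher genes was less firm towards other libraries, at 7 without JVM2-CTRL replicate 2, 6 without JVM2-CTRL replicate 3 and 8 without JVM2-2B17 replicate 1. Of the 14, COX7A2L, NDUFA2, ATP5J2, COX4I1 and ATP5O were called whichever library was left out, and the fall of ATP5B was lost in 5 of 6 leave-outs.

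The c subunit, whose ring turns as protons pass through the ATP synthase, is made from 3 nuclear genes, ATP5G1, ATP5G2 and ATP5G3, which encode the same mature protein. The control arms of the lines held them in different proportions. Taking the CPM per kilobase of the 3 genes as 100%, ATP5G2 gave 37.5%, 37.7% and 35.1% in MEC1-CTRL and 40.2%, 42.3% and 40.5% in MEC1-2B17. In JVM2 it gave 68.0%, 67.2% and 67.2% in the controls and 71.5%, 70.2% and 71.7% in 2B17. The share of ATP5G2 was above the controls in every 2B17 library of both lines, by 4.24 percentage points in MEC1 and 3.66 in JVM2 on average (exact permutation test, p = 0.1 in each line, the smallest that the design allows). These genes were chosen as a group after their values were seen, so that the p-values for their shares are descriptions only.

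The other c subunit genes gave the remaining share. In MEC1 ATP5G3 went from 22.3% ± 0.353 to 20.1% ± 0.645 with arms apart, and ATP5G1 from 40.9% ± 1.23 to 38.9% ± 1.13 with arms that overlapped (SD, n = 3 each; exact permutation tests, p = 0.1 and p = 0.2). In JVM2 ATP5G1 went from 20.3% ± 0.844 to 17.1% ± 0.160 with arms apart, and ATP5G3 from 12.2% ± 0.729 to 11.8% ± 0.719 with overlap (exact permutation tests, p = 0.1 and p = 0.5). By level, ATP5G1 and ATP5G3 fell in MEC1 (-0.27 and -0.34) with ATP5G2 not called (-0.04), whereas in JVM2 ATP5G2 rose (0.21, adjusted p = 0.0396) and the others were not called.

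**Figure D4:**
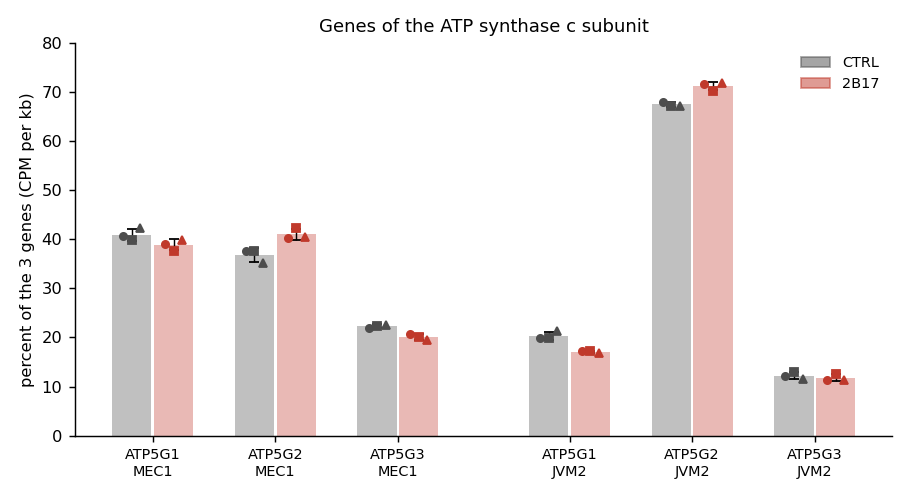
Share of ATP5G1, ATP5G2 and ATP5G3 in their summed CPM per kilobase, in percent, in each library with the arm means. ATP5G2 rose from 36.8% to 41.0% in MEC1 and from 67.5% to 71.1% in JVM2.

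Isoforms restricted to muscle, lung or testis were close to absent. COX6A2, COX7A1 and COX7B2 were in neither table. COX4I2, COX6B2 and COX8C were at 0.03 to 0.18 CPM in the MEC1 libraries and were not in the JVM2 table. NDUFA4L2, which can replace NDUFA4 in complex IV under low oxygen, measured 2.998, 2.88 and 3.22 CPM in MEC1-CTRL and 2.70, 3.31 and 3.28 CPM in MEC1-2B17 (0.03, not called). In JVM2 it measured 1.495, 2.05 and 1.38 CPM in the controls and 0.997, 0.788 and 1.25 CPM in 2B17 (-0.71, adjusted p = 0.108). Per length it was at 1.74 CPM per kilobase in JVM2-CTRL, where NDUFA4 was at 66.0.

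The effects of the arms were then compared between the lines by the interaction of line and arm, coded as the MEC1 log2 fold change minus that of JVM2. The lines differed in control construct and in sequencing depth, and may have differed in sequencing site. These differences cannot be told apart from that of the cells. Of 82 nuclear members tested, 34 had a called difference, all with MEC1 below JVM2 (median -0.20), and these were 33 subunits and the antisense RNA NDUFB2-AS1. Of 13 mitochondrial members, 12 had a called difference, all with MEC1 above JVM2 (median 1.08), and MT-ND6 was the exception. Over the 15130 genes tested, 16.7% were called with MEC1 below JVM2 and 15.3% with MEC1 above, with a median of -0.0072. By complex, the called nuclear subunits were 13 of 36 in complex I, 0 of 4 in complex II, 3 of 9 in complex III, 8 of 12 in complex IV and 9 of 15 in complex V, the core of complex I again holding 0 of 7. Without JVM2-2B17 replicate 2, 34 nuclear members were below and 1 above, and 12 mitochondrial members were above. DESeq2 called 5 of the 13 mitochondrial members.

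**Figure D5:**
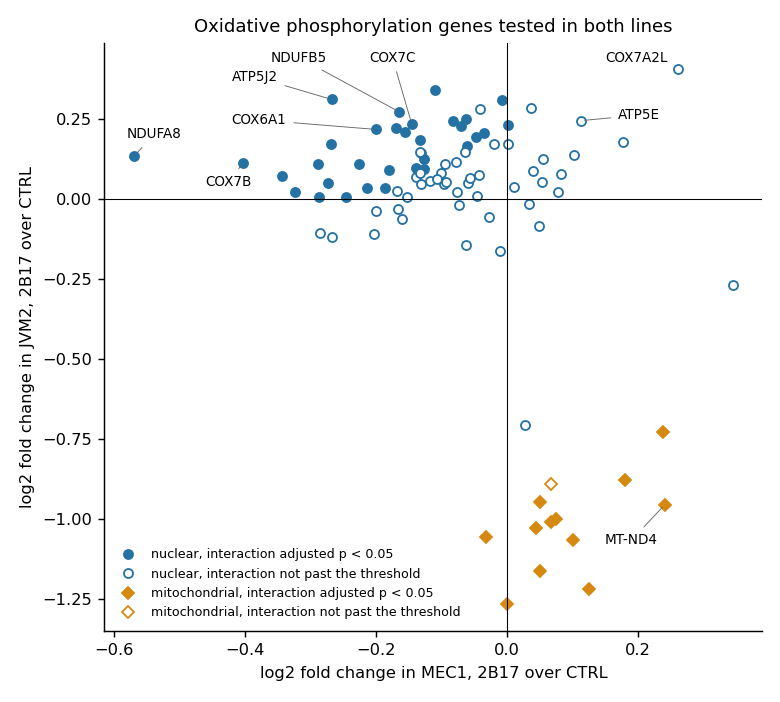
Log2 fold change, 2B17 over CTRL, in MEC1 (horizontal) against JVM2 (vertical) for each member tested in both lines. Nuclear members lie mostly left of 0 in MEC1 and above 0 in JVM2, and mitochondrial members lie near 0 in MEC1 and near -1 in JVM2.

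Of the 80 nuclear members tested in both lines, 34 were lower in MEC1 and not called in JVM2, 8 were higher in JVM2 and not called in MEC1, and 30 were called in neither. Of the 12243 genes tested in both lines, the same classes held 15.7%, 5.87% and 41.1%. ATP5E and COX7A2L were higher in both lines, ATP5E measuring 160.0, 157 and 151 CPM in JVM2-CTRL and 177, 205 and 173 CPM in JVM2-2B17 (0.25, adjusted p = 0.0206). In 4 nuclear genes a fall in MEC1 met a rise in JVM2, each with a called interaction, a class that held 3.93% of all genes tested in both lines. Of these 4, ATP5J2 kept its JVM2 call whichever library was left out, while the calls of COX6A1, NDUFB5 and COX7C were lost in 3, 4 and 5 of the 6 leave-outs. ATP5J2, a subunit of the membrane part of ATP synthase, had the widest gap. It measured 201, 189 and 195 CPM in MEC1-CTRL and 168.5, 154 and 164 CPM in MEC1-2B17 (-0.27 ± 0.040, adjusted p = 2.31e-05). In JVM2 it measured 106, 100.2 and 104 CPM against 122, 133 and 129 CPM (0.31 ± 0.059, adjusted p = 0.00177), and the lines differed by -0.57 ± 0.074 (adjusted p = 4.56e-06).

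COX6A1, a complex IV subunit, measured 166, 165 and 169 CPM in MEC1-CTRL and 149.9, 137 and 149 CPM in MEC1-2B17 (-0.20, adjusted p = 0.000338). In JVM2 it measured 179.8, 169 and 162 CPM against 212, 190.4 and 192 CPM (0.22 ± 0.065, adjusted p = 0.0235). The arms were apart in both lines, and the lines differed by -0.41 ± 0.078 (adjusted p = 0.000345). COX7C, a complex IV subunit too, measured 285, 284 and 291 CPM in MEC1-CTRL and 265, 257 and 255 CPM in MEC1-2B17 (-0.15, adjusted p = 0.00202). In JVM2 it measured 209, 196 and 197 CPM against 233, 268 and 208 CPM (0.24 ± 0.081, adjusted p = 0.0452), where replicate 3 of 2B17 was level with replicate 1 of the controls. Its lines differed by -0.38 ± 0.093 (adjusted p = 0.0036).

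NDUFB5, a complex I accessory subunit, measured 111, 113 and 107 CPM in MEC1-CTRL and 99.6, 100.5 and 95.2 CPM in MEC1-2B17 (-0.16, adjusted p = 0.000765). In JVM2 it measured 68.5, 91.0 and 79.1 CPM against 92.7, 103 and 93.0 CPM (0.27 ± 0.091, adjusted p = 0.0406), a difference between the lines of -0.43 ± 0.10 (adjusted p = 0.00224). MT-ND4 had the reverse pattern, higher in MEC1 and lower in JVM2, a class that held 3.50% of all genes tested in both lines. Its lines differed by 1.202 ± 0.30 (adjusted p = 0.00359), although its JVM2 call was lost without any of the 3 controls. DESeq2 called neither the JVM2 fall (adjusted p = 0.225) nor the difference (adjusted p = 0.068). NDUFA8 (-0.70, adjusted p = 3.53e-06) and COX7B (-0.51, adjusted p = 9.64e-06), which were called in MEC1 and not in JVM2, also differed between the lines.

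Promoters were read for motifs of factors known to act on nuclear respiratory genes, in the 250 bases before the start of each gene in RefSeq (GRCh38.p14), where 63 of the 79 nuclear subunits had an entry. The core of the NRF1 motif, GCGCATGC or its reverse complement GCATGCGC, was in 12 of 63 (19.0%), against 4.8% of 11409 promoters of genes tested and 2.8% of all 27305. The ETS core bound by GABPA, CCGGAAG or CTTCCGG, was in 16 of 63 (25.4%), against 15.9% and 8.8%. The YY1 core AAGATGGC or GCCATCTT was in 1 (1.6%, against 1.9% and 1.4%), and the SP1 core GGGCGG or CCGCCC in 36 (57.1%, against 65.0% and 42.3%). Both strands were searched. The letters of the NRF1 core overlap their own reverse complement, so that a run of GCGCATGCGC holds it on both strands, and each promoter was counted once however many matches it held. None of the other cores contains it or lies within it. Partial overlaps between different cores were not examined. A match of letters is a description and does not show that a factor was bound.

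The stretches below show the NRF1 core, in capitals, in the 8 promoters that carried it and whose gene was called in either line, with the first match where there were several. COX6A1 was lower in MEC1 and higher in JVM2, ATP5G2 was higher in JVM2, and the other 6 were lower in MEC1. All are written 5′ to 3′ on the gene's own strand, at chr12:120437871-120437926 (+) for COX6A1, chr12:53676092-53676147 (-) for ATP5G2, chr3:120596153-120596210 (+) for NDUFB4, chr22:42090907-42090962 (-) for NDUFA6, chr5:1801337-1801392 (+) for NDUFS6, chr10:7788131-7788176 (+) for ATP5C1, chr21:25735143-25735198 (-) for ATP5J and chr4:674323-674378 (-) for ATP5I.
COX6A1: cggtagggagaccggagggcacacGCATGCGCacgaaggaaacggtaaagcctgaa
ATP5G2: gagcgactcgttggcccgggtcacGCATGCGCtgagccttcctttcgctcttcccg
NDUFB4: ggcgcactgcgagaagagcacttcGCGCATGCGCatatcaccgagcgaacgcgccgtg
NDUFA6: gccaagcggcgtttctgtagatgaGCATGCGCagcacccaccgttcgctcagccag
NDUFS6: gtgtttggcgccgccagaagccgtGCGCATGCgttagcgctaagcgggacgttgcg
ATP5C1: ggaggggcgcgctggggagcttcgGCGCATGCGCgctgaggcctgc
ATP5J: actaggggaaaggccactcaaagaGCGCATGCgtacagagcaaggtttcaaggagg
ATP5I: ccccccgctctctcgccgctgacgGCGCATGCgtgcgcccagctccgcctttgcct
In MEC1 7 of the 12 genes with the NRF1 core were lower (median -0.17), and 23 of 49 tested genes without it were lower and 2 higher (median -0.10). In JVM2, 2 of 12 with it and 8 of 49 without it were higher. With the ETS core, 10 of 16 were lower in MEC1 and 1 of 16 higher in JVM2, and without it 20 of 45 were lower in MEC1 and 9 of 45 higher in JVM2. Over all genes tested, 21.6% were lower in MEC1 and 14.1% higher in JVM2. Nuclear subunits with the largest falls in MEC1 or with opposite changes differed in these letters. The promoters of NDUFA8, COX7B, UQCR10 and COX7C contained neither the NRF1 nor the ETS letters. That of COX6A1 contained both, and that of UQCRQ the ETS letters. ATP5G3, ATP5J2 and NDUFB5 had no promoter entry.

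Transcript length was compared with fold change as a description across genes, which are not independent replicates. Over the 76 nuclear subunits Spearman's rho was 0.27 in MEC1 and -0.16 in JVM2, against -0.03 and -0.14 over all protein-coding genes tested. Protein-coding genes of the same lengths that were no members had medians of 0.0022 in MEC1 and 0.0052 in JVM2, against -0.11 and 0.089 for the subunits.

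Genes that build and feed the complexes gave the wider setting. The list of assembly factors also held complex V genes that are no assembly factors. Of its 59 genes tested in each line, 10 were higher and 15 lower in MEC1 and 7 higher and 1 lower in JVM2. These were 16.9% higher and 25.4% lower in MEC1, near the 20.0% and 21.6% of all genes, and 11.9% higher and 1.69% lower in JVM2, where all genes gave 14.1% and 15.3%. COA1, which acts in the assembly of complexes I and IV, rose in both lines, from 130.2, 128 and 129 CPM to 162, 168 and 159.6 CPM in MEC1 (0.34, adjusted p = 1.19e-07) and from 51.9, 56.6 and 53.2 CPM to 75.0, 70.9 and 66.9 CPM in JVM2 (0.40, adjusted p = 0.000945). The complex IV factors CMC1 (-0.23 in MEC1 and 0.45 in JVM2) and COX14 (-0.22 and 0.34) fell in MEC1 and rose in JVM2. TIMMDC1, a membrane factor of complex I, did so too (-0.11 and 0.31). That class held 3.93% of all 12243 genes tested in both lines. Of the list's 7 complex V genes, 3 were called lower in MEC1, C14orf2 (-0.20), USMG5 (-0.17) and ATPIF1 (-0.17), and none in JVM2. C14orf2 and USMG5 encode small subunits of the enzyme, and ATPIF1 its inhibitor.

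Genes that replicate, transcribe and process mitochondrial DNA and RNA formed a list of 32. In JVM2, 2 were higher, the termination factor family member MTERF2 (0.43, adjusted p = 0.0184) and the nuclease MGME1 (0.26, adjusted p = 0.0172), and the tRNA-processing nuclease ELAC2 was lower (-0.21, adjusted p = 0.0178), which made 6.25% higher and 3.12% lower beside 14.1% and 15.3% of all genes. In MEC1 8 (25.0%) were higher and 2 (6.25%) lower, beside 20.0% and 21.6% of all genes, among them TOP1MT, the mitochondrial topoisomerase (0.35), MTERF4 (0.25), the helicase gene C10orf2 (0.24) and the RNA stability factor SLIRP (-0.23). Of 13 regulators of mitochondrial biogenesis, 2 were higher and 2 lower in each line, or 15.4% each way, with MYC (0.50) the largest change in MEC1 and the deacetylase SIRT3 (0.47) in JVM2. The coactivator PPRC1 rose in MEC1 (0.25, adjusted p = 0.000292) and fell in JVM2 (-0.46, adjusted p = 0.0249).

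Of 19 tricarboxylic acid cycle genes, 8 were lower and 1 higher in MEC1, and 5 lower and 2 higher in JVM2. The shares lower were 42.1% in MEC1 and 26.3% in JVM2, beside 21.6% and 15.3% of all genes, and the shares higher 5.26% and 10.5%, beside 20.0% and 14.1%. OGDH, a subunit of the 2-oxoglutarate dehydrogenase, fell in both (-0.31 and -0.34), and IDH3A (-0.35) in MEC1 and the citrate synthase gene CS (-0.33) in JVM2 were lower too. PC, which makes oxaloacetate from pyruvate, had the largest change in JVM2 (1.99, adjusted p = 0.000254). Of 15 coenzyme Q and cytochrome c genes, 2 (13.3%) were higher and 4 (26.7%) lower in MEC1 and 2 (13.3%) were higher in JVM2. COQ2, which attaches the side chain in coenzyme Q synthesis, was lower in MEC1 (-0.18) and higher in JVM2 (0.65, adjusted p = 0.000112), and ADCK3 was higher in both (0.35 and 0.28). Of 27 import genes, 5 (18.5%) were higher and 2 (7.41%) lower in MEC1 and 4 (14.8%) higher and 2 (7.41%) lower in JVM2, the shares higher being near those of all genes, with the processing peptidase gene PMPCB (0.24 and 0.42) and the receptor gene TOMM20 (0.22 and 0.29) higher in both and PMPCA (-0.50) lower in MEC1.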

How the data were processed

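RNA-seq was done on 12 libraries, 3 per group. Per the submitters' processing notes and the study's methods, the authors trimmed reads with Trimmomatic, aligned them with TopHat2 (version 2.0.14) to hg38 and counted them with HTSeq in the MUGQIC pipeline, and deposited 1 table of raw read counts per gene for each line, with the replicates not pooled. The tables also hold 12 normalized columns of single libraries and fold changes and p-values from edgeR and DESeq2, which were not used here. Each row of the tables held at least 10 counts in all.

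Each line was fitted by itself with edgeR 4.0.16 (R 4.3.3), with TMM scaling, filterByExpr (minimum count 10) and the quasi-likelihood test. Adjusted p below 0.05 was called over all genes tested. The interaction used all 12 libraries. TMM factors were 0.9839 to 1.0099. CPM used TMM-scaled library sizes. Single values were compared by exact permutation tests (scipy 1.17.1), and shares were given Wilson 95% intervals. Alternatives were DESeq2 1.42.0, edgeR's exact test, calls by both tools, other scalings, other filters, mitochondrial rows removed, a replicate block and leaving out each replicate. Copies of mitochondrial genes were found with BLAST 2.17.0. The fits were tested on simulated data. Genes were named by rule: all mitochondrial members, complex II, those called in both lines or with opposite signs, the 5 largest rises and falls per line, tissue-restricted isoforms with their partners, and up to 4 called genes per related list. NDUFV2, the c subunit genes as a group and the chromosome 9 region were chosen after their values were seen. The members and lists were chosen with earlier results of these data known.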

Additional observations from a re-analysis of the deposited data

Results flagged for a closer look

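By the test of line by arm in edgeR's quasi-likelihood fit (MEC1 minus JVM2, log2), the effect of UGT2B17 differed between the lines for 33 nuclear subunits and the antisense RNA NDUFB2-AS1 (34 of 82 nuclear members), all with MEC1 below JVM2, and for 12 of 13 mitochondrial genes, all with MEC1 above. Of all genes tested, 16.7% were called with MEC1 below and 15.3% with MEC1 above. In 5 genes the effect also passed the test in each line with opposite signs, and these were ATP5J2 (-0.57), COX6A1 (-0.41), COX7C (-0.38), NDUFB5 (-0.43) and MT-ND4 (1.202). The 4 nuclear genes, of 80 tested in both lines, fell in MEC1 and rose in JVM2, and MT-ND4 went the other way. Of all 12243 genes tested in both lines, 3.93% were called lower in MEC1 and higher in JVM2, and 3.50% the other way. The control cells of the lines carried different constructs, and the sequencing site of each library is not known. Neither can be told apart from the lines. ATP5J2 kept its call in both lines whichever library was left out. The JVM2 call was lost in 3 of 6 leave-outs for COX6A1 and MT-ND4 each, in 4 of 6 for NDUFB5 and in 5 of 6 for COX7C, and in JVM2 MT-ND4 had an adjusted p of 0.225 with DESeq2. The interactions of all 5 genes were called in each of the 12 leave-outs, and that of MT-ND4 was not called by DESeq2 (adjusted p = 0.068).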

How the results depend on the processing

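No call changed direction under any alternative run. In JVM2, the 1 nuclear gene that was lower (ATP5B) became 0 under DESeq2, edgeR's exact test, calls by both tools, RLE scaling and no filter. The 10 mitochondrial genes lower in JVM2 became 2 under DESeq2 and under calls by both tools, and the 12 mitochondrial genes with a called interaction became 5 under DESeq2, 4 of them shared. Leaving out each replicate gave 2 to 5 nuclear genes higher and 32 to 37 lower in MEC1, 6 to 17 higher and 0 to 2 lower in JVM2, and 5 to 12 mitochondrial genes lower in JVM2. For the interaction it gave 0 to 1 nuclear genes with MEC1 above JVM2 and 24 to 38 below, and 12 to 13 mitochondrial genes above. The log2 ratio of the mitochondrial share then lay between -1.22 and -0.73 in JVM2 and between -0.02 and 0.03 in MEC1. With the replicate block, 17 nuclear genes were higher, 1 lower and 12 mitochondrial genes lower in JVM2, 3 nuclear genes were higher and 38 lower in MEC1, and 34 nuclear and 12 mitochondrial genes had a called interaction. The labels do not say whether same-numbered libraries were paired. Correlations of their deviations from the arm means were -0.0422, -0.0067 and 0.04 in MEC1 and 0.0857, 0.1166 and -0.0059 in JVM2. Not every library correlated best with its own number. In JVM2 control replicates 1 and 2 did and control replicate 3 did not, so that pairing there is unresolved. With library size only, the median of all genes was -0.0076 in MEC1 and -0.006 in JVM2. JVM2 libraries were shallower than those of MEC1, which limits the precision of genes with few counts there, such as MT-ND6 and NDUFA4L2.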

Other observations

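Glycolysis genes, a list added beside those of the respiratory chain, also fell in MEC1. Of 21 tested, 15 were lower and 2 higher in MEC1-2B17 (median -0.18), beside 21.6% lower and 20.0% higher among all genes tested. The hexokinase gene HK1 (-0.69, edgeR adjusted p = 2.97e-09), the glucose transporter gene SLC2A3 (-0.62, adjusted p = 4.44e-09), ALDOC (-0.50) and TPI1 (-0.43) had the largest falls. In JVM2 1 of 21 was lower, the lactate and pyruvate transporter gene SLC16A1 (-0.27, adjusted p = 0.00912), and 0 were higher (median -0.03). Over all genes tested in JVM2, 15.3% were lower and 14.1% higher.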
